A study of Mus musculus with 2 samples.

Results

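The KAT8 peaks with an extreme enrichment were chosen by their deposited fold over local background, at 10 or more, so the fold and the values tied to it are given as a description. In the library of macrophages given R848, 299 of 44772 peaks (0.668%) met this rule, and in the untreated library 307 of 52001 peaks (0.59%) did. Merged where they overlapped or lay within 1000 bp, they made 332 loci. The data are CUT&Tag peak lists, in which an antibody against KAT8 directs a transposase to cut and tag nearby DNA. Bone marrow of mice had been cultured with 20 ng/ml M-CSF to give macrophages, which were either stimulated with 100 ng/ml R848, an agonist of the endosomal receptor TLR7, for 2 h (1 library) or left untreated (1 library). Peak lists do not report expression, so the macrophage label was not checked against marker genes here. Since there was no replicate in either group, values below come without a replicate check or a p-value. Folds, widths and pileups describe each list, and differences between lists of unequal depth do not measure a change in binding.

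KAT8 is a MYST-family lysine acetyltransferase that does the catalysis in the MSL and NSL complexes of chromatin. The NSL complex is known for occupying promoters of broadly expressed genes, many of them rich in CpG dinucleotides. In CUT&Tag and related assays, reads from sequences that exist in many copies but are represented fewer times in the assembly pile up at those positions, so very deep peaks are commonly checked against repeats such as satellite DNA, ribosomal RNA genes and nuclear copies of mitochondrial DNA. No repeat annotation or list of high-signal regions was used here, so which peaks lie on repeats was not tested, and they are named below by position and annotated gene. Whether the deposited lists were made with a control library is not given in the sources used here.

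Extreme peaks at promoters were mostly broad and CpG-dense, and extreme peaks elsewhere were mostly narrow. The sequences of 6 promoter windows under extreme peaks show the range of CpG content, with 4 CpG-dense windows and the 2 genes with the fewest CpG dinucleotides, which were chosen for that after their values were seen. Each window runs from 250 bp before to 50 bp after an annotated start (RefSeq, GRCm38.p6, the build also called mm10) and is printed 5′ to 3′ on the gene's strand, with each CpG dinucleotide in capitals. The first 4 belong to broad extreme peaks at coding genes and hold 33, 46, 39 and 38 CpG dinucleotides. The last 2 belong to narrow extreme peaks at the predicted genes Gm46178 and Gm15564 and hold 2 and 6. They are Pole4, which encodes an accessory subunit of DNA polymerase epsilon (chr6:82652816-82653115, minus strand), Apaf1, the scaffold of the apoptosome (chr10:91082694-91082993, minus strand), Fasn, fatty acid synthase (chr11:120824498-120824797, minus strand), Cry1, a repressor of the circadian clock (chr10:85185005-85185304, minus strand), Gm46178 (chr1:191120652-191120951, plus strand) and Gm15564 (chr16:35981798-35982097, minus strand).
Pole4: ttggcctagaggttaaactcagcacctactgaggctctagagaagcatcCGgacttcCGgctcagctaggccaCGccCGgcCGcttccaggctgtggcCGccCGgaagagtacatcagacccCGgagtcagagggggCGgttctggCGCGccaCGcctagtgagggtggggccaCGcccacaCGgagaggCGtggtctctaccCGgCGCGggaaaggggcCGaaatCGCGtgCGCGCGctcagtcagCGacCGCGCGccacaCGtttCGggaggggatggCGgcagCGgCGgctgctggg
Apaf1: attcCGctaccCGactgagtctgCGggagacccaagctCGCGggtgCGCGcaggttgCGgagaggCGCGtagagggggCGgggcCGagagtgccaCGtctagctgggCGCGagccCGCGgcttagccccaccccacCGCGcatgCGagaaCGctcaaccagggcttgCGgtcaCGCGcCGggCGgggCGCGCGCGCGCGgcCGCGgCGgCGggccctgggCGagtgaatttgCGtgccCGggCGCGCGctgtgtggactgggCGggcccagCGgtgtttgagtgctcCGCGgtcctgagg
Fasn: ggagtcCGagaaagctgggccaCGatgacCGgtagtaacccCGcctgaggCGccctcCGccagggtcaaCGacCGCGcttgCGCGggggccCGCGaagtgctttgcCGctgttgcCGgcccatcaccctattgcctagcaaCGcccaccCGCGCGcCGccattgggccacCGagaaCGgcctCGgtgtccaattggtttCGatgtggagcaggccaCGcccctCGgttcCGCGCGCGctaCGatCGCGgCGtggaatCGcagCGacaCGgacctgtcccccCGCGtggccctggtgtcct
Cry1: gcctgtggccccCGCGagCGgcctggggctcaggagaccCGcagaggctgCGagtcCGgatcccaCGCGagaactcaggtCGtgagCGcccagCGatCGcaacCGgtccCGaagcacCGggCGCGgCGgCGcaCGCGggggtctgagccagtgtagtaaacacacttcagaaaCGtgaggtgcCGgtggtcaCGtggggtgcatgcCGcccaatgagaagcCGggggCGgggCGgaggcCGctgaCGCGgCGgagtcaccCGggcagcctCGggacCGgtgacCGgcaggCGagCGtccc
Gm46178: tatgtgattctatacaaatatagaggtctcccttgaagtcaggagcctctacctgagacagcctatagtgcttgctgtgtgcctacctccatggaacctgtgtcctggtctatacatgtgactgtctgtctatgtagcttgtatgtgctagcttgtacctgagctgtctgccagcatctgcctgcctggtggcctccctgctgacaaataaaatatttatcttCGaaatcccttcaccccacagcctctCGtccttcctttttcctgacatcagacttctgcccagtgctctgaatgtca
Gm15564: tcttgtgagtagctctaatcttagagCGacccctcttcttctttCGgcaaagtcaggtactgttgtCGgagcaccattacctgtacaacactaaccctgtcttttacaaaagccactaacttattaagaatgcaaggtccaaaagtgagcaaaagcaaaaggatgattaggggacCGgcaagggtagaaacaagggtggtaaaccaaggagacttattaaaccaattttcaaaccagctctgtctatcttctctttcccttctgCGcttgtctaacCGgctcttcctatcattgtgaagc

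Broad extreme peaks were often at coding gene ends. Among extreme peaks of 600 bp or more, 44 of 103 in the R848 list (42.7%) and 42 of 102 in the untreated list (41.2%) had their summit at a coding gene end. Of all peaks of 600 bp or more, 878 of 3888 in the R848 list and 1088 of 4508 in the untreated list did. A coding gene end lay within 1000 bp of the summit for 50 R848 extreme peaks (16.7%, 95% exact binomial interval 12.7 to 21.4, against 10.6% of all R848 peaks) and for 50 untreated extreme peaks (16.3%, 12.3 to 20.9, against 10.8% of all untreated peaks). All such intervals cover counting error alone. These gene-end peaks had a median width of 880 bp in the R848 list and 960 bp in the untreated list. The extreme peaks outside annotated genes had medians of 410 bp in the R848 list and 402 bp in the untreated list, and all peaks had a median of 281 bp in each list. A width of 600 bp or more was reached by 44 of the 50 gene-end peaks of the R848 list, whose folds ran from 10 to 17.3, and by 42 of the 50 of the untreated list, whose folds ran from 10 to 17.5. The gene-end peaks under 600 bp numbered 6 in the R848 list, with folds of 13.0 to 42.0, and 8 in the untreated list, with folds of 10.5 to 42.0.

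Narrow extreme peaks lay mostly away from gene ends, as did peaks of any fold. Of the extreme peaks under 600 bp, 6 of 196 in the R848 list (3.06%) and 8 of 205 in the untreated list (3.9%) had their summit at a coding gene end. Outside annotated genes lay 98 in each list (50% with R848 and 47.8% untreated). Of all peaks, most of them under 600 bp, 10.6% (R848) and 10.8% (untreated) were at gene ends. Outside annotated genes lay 48.8% (R848) and 49.1% (untreated) of all peaks, near the shares of the narrow extreme peaks. Over all widths, 126 R848 extreme peaks had their summit outside annotated genes (42.1%, 36.5 to 48.0, against 48.8% of all R848 peaks), and of the untreated extreme peaks 130 did (42.3%, 36.8 to 48.1, against 49.1% of all untreated peaks). The share inside a protein-coding gene, away from its ends, was 31.4% in the R848 list (94 peaks, against 32.5% of all peaks) and 32.9% in the untreated list (101 peaks, against 31.6%), close to the background in both. Other annotated genes held 29 extreme peaks of the R848 list (9.7%, against 8.14% of all peaks) and 26 of the untreated list (8.47%, against 8.47%). The extreme peaks outside genes lay a median of 57.5 kb from the nearest coding gene in the R848 list and 63.8 kb in the untreated list, and the farthest lay 2140 kb away in both. The 94 R848 peaks inside coding genes lay in 95 genes with a median length of 95.9 kb, and the 101 untreated ones in 102 genes with a median of 104 kb. Genes that held any such internal peak had medians of 59.9 kb in the R848 list and 57.6 kb in the untreated list, and all 21887 protein-coding genes had a median of 17.2 kb. Each gene counts once in these medians, however many peaks it held. The 14533 internal R848 peaks lay in 5811 genes and the 16445 untreated ones in 6331. The medians are thus not weighted alike per peak, and whether extreme peaks favour long genes was not tested.

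**Figure D1:**
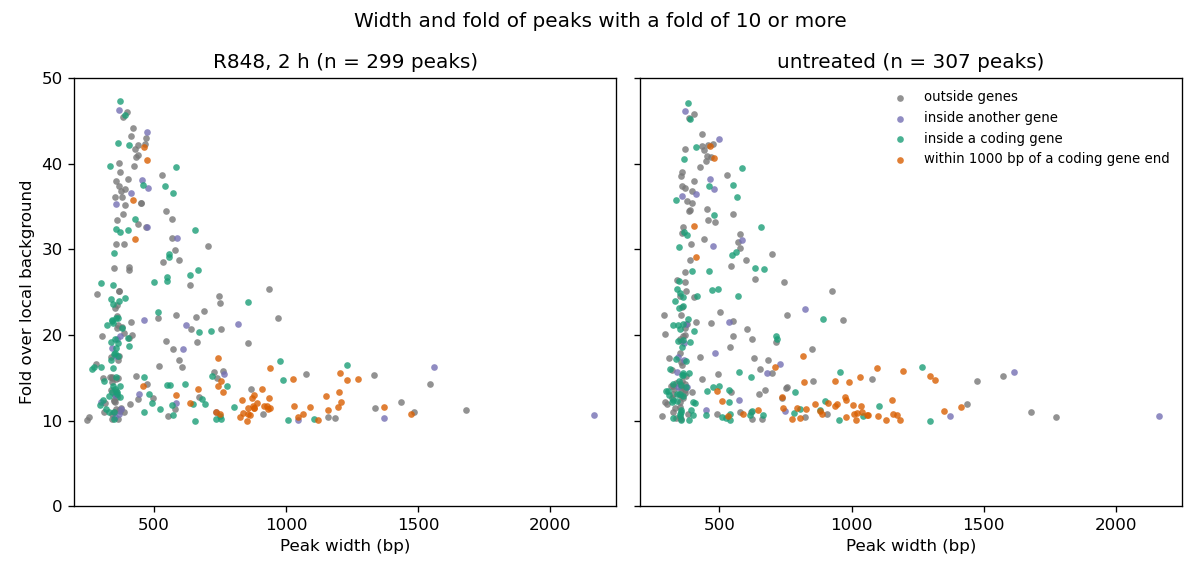
Width in bp (x axis) against fold over local background (y axis) of each extreme peak, in the R848 list (left, 299 peaks) and the untreated list (right, 307 peaks), coloured by the place of the summit. Peaks at coding gene ends sit low and to the right, mostly with folds under 18, while peaks over a fold of 30 are nearly all narrow and lie elsewhere.

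The gene-end share was highest just above the threshold and low at the top of the fold range. In the R848 list, 34.3% of the 70 peaks with folds of 10 to 12 lay at a gene end, 30.2% of the 63 with folds of 12 to 15, 6.12% of the 49 with folds of 15 to 20, 0% of the 57 with folds of 20 to 30 and 6.67% of the 60 with folds of 30 or more. In the untreated list the shares were 38.2% of 76 peaks, 16.9% of 65, 11.3% of 53, 1.85% of 54 and 5.08% of 59 in the same order of folds. Median width was largest in the lowest of these fold ranges and did not fall steadily above it. From the lowest range to the highest it was 753, 493, 403, 416 and 423 bp in the R848 list and 779, 377, 484, 402 and 435 bp in the untreated list. Since the fold chose the peaks, these are descriptions of the lists. A width of 600 bp or more was reached by 34.4% of the R848 extreme peaks (103, against 8.68% of all R848 peaks) and by 33.2% of the untreated ones (102, against 8.67%). Across the extreme peaks, fold and width had a Spearman rho of -0.25 in the R848 list (n = 299) and -0.23 in the untreated list (n = 307), where all points of a list share 1 library.

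**Figure D2:**
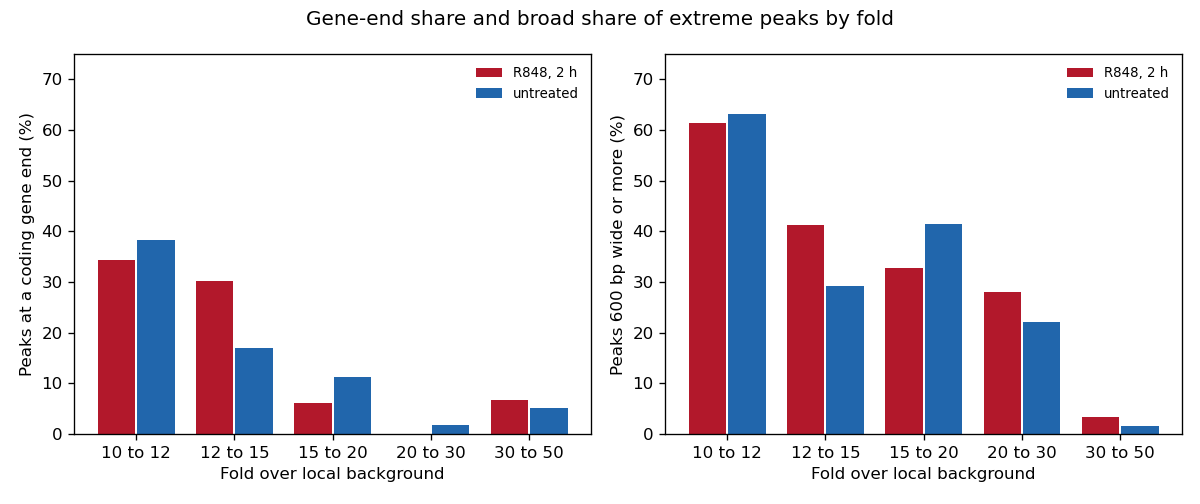
Share of extreme peaks at a coding gene end (left) and share 600 bp wide or more (right), both in percent, by fold over local background, with red bars for R848 and blue bars for untreated. The gene-end share is 34.3% (R848) and 38.2% (untreated) at folds of 10 to 12 and at most 6.67% above a fold of 20.

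The extreme peaks were found at the same positions in both lists. An untreated peak overlapped each of the 299 R848 extreme peaks (100%, 98.8 to 100, against 35.8% of all R848 peaks), and an R848 peak overlapped each of the 307 untreated ones (100%, 98.8 to 100, against 31.0% of all untreated peaks). How far their depth alone goes with this sharing was not tested. An extreme peak of the other list was the partner for 271 R848 extreme peaks (90.6% of that list, 86.8 to 93.7) and for 271 untreated ones (88.3%, 84.1 to 91.7). The summits of these 271 pairs lay a median of 7 bp apart, and 243 pairs lay within 50 bp, whereas the 15700 overlapping pairs in which neither peak was extreme had a median summit distance of 101 bp. The 957 of those pairs with an untreated −log10 q of 10 or more had a median of 45 bp, and 505 of them lay within 50 bp. The fold in the R848 list over that in the untreated list had a median of 1.01 across the 271 pairs and ranged from 0.607 to 1.55.

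The number of overlapping fragments at the summit, here called the pileup, was recovered from the deposited fold and p-value. For the 271 pairs the R848 pileup over the untreated pileup had a median of 0.861, with an interquartile range of 0.793 to 0.947. Pairs that were not extreme had a median of 0.846 (0.714 to 1.0), and the lowest background of the R848 library was 0.777 times that of the untreated library. The 957 pairs that were not extreme but had an untreated −log10 q of 10 or more, and so were chosen on the untreated value, had a median pileup ratio of 0.759 (0.615 to 0.878). The 38 gene-end pairs had a median of 0.904, and the 16 pairs at the last peak of a chromosome had a median of 0.943, with a range of 0.771 to 0.991.

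**Figure D3:**
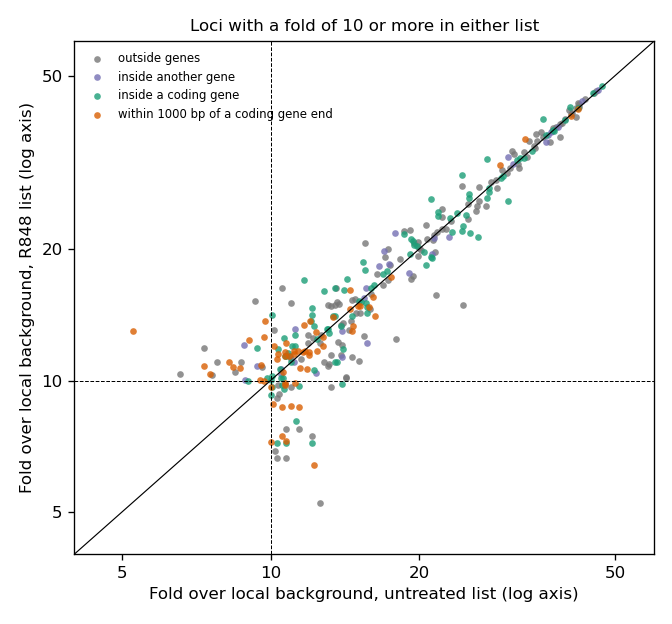
Fold over local background of each of the 332 loci in the R848 list (y axis) and the untreated list (x axis), both on log axes, coloured by the place of the summit, with dashed lines at a fold of 10 and a solid line of equality. Loci with folds over 30 lie near the line. Most of the 26 loci extreme in the R848 list only and of the 35 extreme in the untreated list only lie near the dashed lines. Their folds in the other list go down to 5.26 (untreated list) and 5.25 (R848 list).

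Most loci that were extreme in 1 list only sat close to the threshold. The 26 loci extreme in the R848 list only had folds of 10 to 15.2 there (median 10.8) and of 5.26 to 9.82 in the untreated list (median 8.85). The 35 loci extreme in the untreated list only had folds of 10 to 14.0 there (median 10.7) and of 5.25 to 9.88 in the R848 list (median 8.75). A fold of 8 or more was still reached in the other list by 19 of the 26 and by 21 of the 35. Gene ends held 12 loci of each group and 38 of the 271 loci extreme in both lists.

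Among loci extreme with R848 only, the highest fold belonged to a position with no gene on chromosome 17 (15.2 in the R848 list and 9.32 in the untreated list). It was followed by Sptan1, which encodes a spectrin of the membrane skeleton (13.7 with R848 and 9.74 untreated), and by Raph1, which encodes lamellipodin, a regulator of actin at the cell edge (13.0 with R848 and 5.26 untreated). The Raph1 peak had the widest gap of the R848-only loci. Hook3, a microtubule motor adaptor, and its neighbour Rnf170, a ubiquitin ligase of the endoplasmic reticulum, shared a peak with a fold of 12.6 with R848 and 9.68 untreated. Safb2 and Safb, neighbouring genes of scaffold attachment factors, also shared a peak, with a fold of 12.4 with R848 and 9.04 untreated. The predicted gene LOC108168760 on chromosome 2 had 12.1 with R848 and 8.84 untreated, and Atp6v0a2, which encodes a subunit of the vacuolar proton pump, had 11.9 with R848 and 9.38 untreated. A position with no gene on chromosome 9 completed the first 8, at 11.9 with R848 and 7.32 untreated.

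Of the loci extreme in the untreated list only, Atrnl1, an attractin-like membrane protein gene, came first, with a fold of 9.84 with R848 and 14.0 untreated. The non-coding gene 9330117O12Rik had 9.67 with R848 and 13.3 untreated. A position on the Y chromosome (29096225) had 5.25 with R848 and 12.6 untreated, the lowest R848 fold among the 35 loci, and another on that chromosome (12752644) had 7.74 with R848 and 11.4 untreated. Gins2, which encodes a subunit of the replicative helicase complex, and its neighbour Gm10614 shared a peak with a fold of 6.39 with R848 and 12.2 untreated. Rcor1, which encodes the corepressor CoREST, had 7.18 with R848 and 12.1 untreated, and Wee1, a kinase gene of the cell cycle, had 8.72 with R848 and 11.4 untreated. A position with no gene on chromosome 17 (38001907) had 7.46 with R848 and 12.1 untreated.

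The threshold of 10 fell within a continuous range. Just inside it in the R848 list were Rab10, a GTPase gene of membrane trafficking, and the zinc finger gene Zfp473, at 10 each, and the immunoglobulin heavy chain locus Igh at 10.02. Just outside it were Cdkal1, a tRNA-modifying enzyme gene, at 9.948, Sf3b1, a splicing factor gene, at 9.896, and the adjoining genes Ubxn6 and Hdgfl2 at 9.879. In the untreated list, Atad2b (10), Thap1 (10.021) and the transcription factor gene Nfatc3 (10.036) were just inside. A position with no gene on chromosome 10 (9.955), the predicted gene Gm40034 (9.953) and a position on the Y chromosome (9.95) were just outside.

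The 12 loci with the highest folds were all extreme in both lists. The first lay inside Chl1, a neural cell adhesion gene (chr6:103649012-103649392), with a fold of 47.3 in the R848 list at a pileup of 2647 fragments and of 47.1 in the untreated list at 2948. Next were the predicted gene Gm46595 on chromosome 17 (46.3 with R848 and 46.1 untreated) and a position without a gene near the start of chromosome 12 (chr12:3109769-3110173, 46.1 with R848 and 45.8 untreated). Gphn, which encodes the receptor scaffold gephyrin, had an internal peak with 45.8 in the R848 list and 45.2 in the untreated list. Positions with no gene on chromosomes 16 and X had 45.5 and 44.2 with R848, against 45.3 and 43.5 untreated. The predicted gene Gm33838 on chromosome 9 had 43.7 with R848 and 42.9 untreated. The last peaks of chromosomes 1, 12 and 19 had 43.2, 43.0 and 42.4 with R848, against 42.1, 42.3 and 42.2 untreated. Il31ra, a cytokine receptor gene (42.4 with R848 and 40.6 untreated), and Sspn, which encodes the membrane protein sarcospan (42.2 with R848 and 42.0 untreated), completed the 12.

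A near-maximal fold went with very different depths. The first 10 peaks by fold had folds of 42.4 to 47.3 in the R848 list at pileups of 628 to 6916 fragments, and of 42.1 to 47.1 in the untreated list at pileups of 1201 to 8024. Of these 10, 1 in the R848 list and 1 in the untreated list were also among the first 10 by pileup. The peak at Gm33838 was the deepest of the 12 loci, with 6916 fragments with R848 and 8024 untreated, and that at Il31ra the shallowest, with 628 with R848 and 738 untreated. With R848 the recovered background was 157 fragments at Gm33838 and 13.8 at Il31ra. It was thus higher at the deeper peak, and the folds stayed close. How the background arose at such peaks was not tested, so the order of their folds is a description. Over all extreme peaks the median pileup was 99 fragments in the R848 list (range 36 to 18669) and 114 in the untreated list (43 to 20385), against 10 over all R848 peaks and 12 over all untreated peaks. Fold and pileup had a Spearman rho of 0.76 over the 299 R848 extreme peaks and 0.79 over the 307 untreated ones.

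The last peak of a chromosome, at the end away from the centromere, was extreme on most chromosomes. The last peak met the rule on 16 of 21 chromosomes in the R848 list (76.2%) and on 17 of 21 in the untreated list (81.0%), against 0.668% of all R848 peaks and 0.59% of all untreated peaks. These last peaks had folds of 12.7 to 43.2 with R848 (median 37.6) and 11.9 to 42.3 untreated (median 35.7), and 15 of them passed a fold of 20 in each list. Their widths ran from 360 to 749 bp with R848 and from 303 to 755 bp untreated. Their pileups ran from 45 fragments on chromosome 17 to 4555 on chromosome 7 with R848, and from 51 on chromosome 17 to 4619 on chromosome 7 untreated. The peak before the last met the rule on 1 of 21 chromosomes (4.76%) in each list.

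The chromosomes whose last peak was not extreme were 4, 6, 9, 15 and Y in the R848 list (folds 2.68 to 7.46) and 6, 9, 15 and Y in the untreated list (3.43 to 6.64). Chromosome 4 differed only because a small R848 peak of fold 3.47 lay beyond the extreme one, which had a fold of 15.77 with R848 and 15.99 untreated. The peak within 1000 bp of Wls, a gene for a carrier of secreted Wnt proteins, was the last peak of chromosome 3 (chr3:159939311-159939780, fold 42.0 with R848 and 42.0 untreated). The 16 extreme last peaks of the R848 list lay from 880 bp (Wls) to 203069 bp (Asmt, chromosome X) from the nearest coding gene. The distance to the ends of the assembled chromosomes was not used here.

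**Figure D4:**
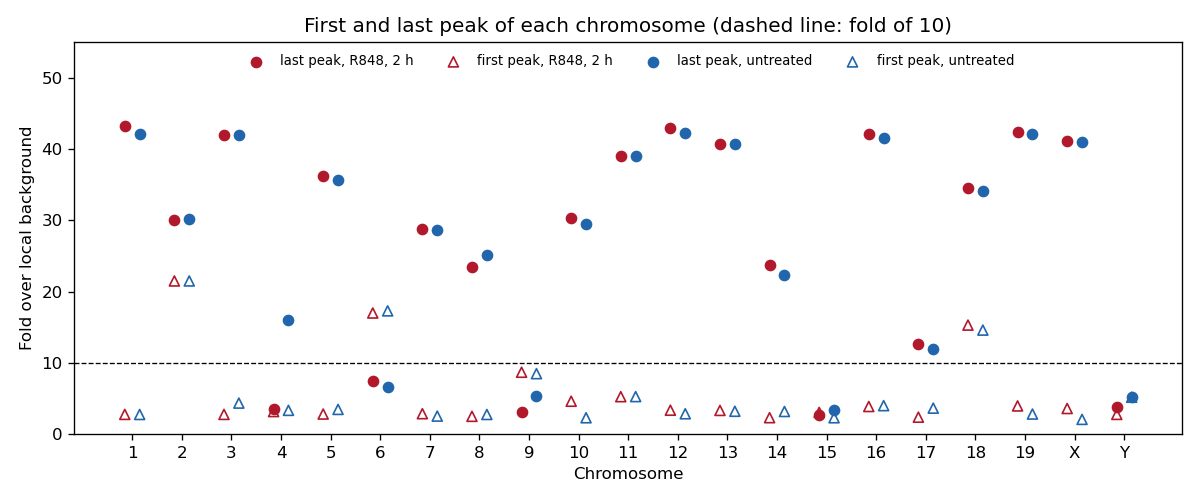
Fold over local background (y axis) of the last peak (filled circles) and the first peak (open triangles) of each of the 21 chromosomes (x axis), R848 in red on the left and untreated in blue on the right of each chromosome, with a dashed line at a fold of 10. The last peak is above the line on 16 chromosomes in the R848 list and 17 in the untreated list, and the first peak on 3 in each.

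At the low-coordinate ends the first peak was extreme on fewer chromosomes than the last. Mouse autosomes and X carry their centromere at that end, where arrays of satellite DNA are known to lie. Of all 21 chromosomes, Y included, the first peak met the rule on 3 in each list (14.3%, against 0.668% of all R848 peaks and 0.59% of all untreated peaks). These were chromosomes 2, 6 and 18. Within the first 4 Mb of the autosomes and X lay 13 extreme peaks of the R848 list (4.35%, 2.34 to 7.32, against 1.25% of all R848 peaks) and 13 of the untreated list (4.23%, 2.27 to 7.13, against 1.16% of all untreated peaks). After the position on chromosome 12 named above, the highest folds there were on chromosome 9 (chr9:3258483-3259052, 33.5 with R848 and 30.9 untreated), chromosome 8 (3754270, 27.6 with R848 and 28.8 untreated) and chromosome 6 (3200743, 25.4 with R848 and 25.2 untreated). Those on chromosomes 13 and 2 had 21.9 and 21.5 with R848, against 21.8 and 21.5 untreated. Only 2 coding genes had an extreme gene-end peak in this zone, Asxl2, which encodes a partner of the deubiquitinase BAP1 (14.8 with R848 and 15.2 untreated), and Rab10 (10 with R848 and 9.71 untreated, under the threshold).

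Many of the deepest peaks of both lists were not extreme by fold. Of the first 100 peaks by pileup, 58 of the R848 list and 57 of the untreated list met the rule. The 42 R848 peaks that did not had folds of 1.63 to 9.42 over local backgrounds of 73.4 to 4930 fragments, and the 43 untreated ones had folds of 1.67 to 8.58 over backgrounds of 95.9 to 5510. Each of these 42 R848 and 43 untreated peaks had another peak of its list within 10 kb, whereas 14 of the 58 deep extreme R848 peaks and 13 of the 57 untreated ones had one. The split was by fold at high pileup, and so by local background, and these neighbour counts are a description. Among all extreme peaks, 69 of the R848 list had such a neighbour (23.1%, 18.4 to 28.3, against 45.5% of all R848 peaks) and 82 of the untreated list (26.7%, 21.8 to 32.0, against 48.8% of all untreated peaks). The recovered local background lay above the lowest of its library for 266 R848 extreme peaks (89.0%, against 36.9% of all R848 peaks). It did so for 266 untreated ones (86.6%, against 30.6% of all untreated peaks). This background was solved from the fold that chose the peaks. Extreme peaks were also deeper, with a median pileup of 99 against 10 with R848 and 114 against 12 untreated. These background shares are therefore a description. A deep peak with a fold under 10 has a high local background by the definition of the fold. The higher background at the deep peaks below the threshold thus follows from how they were chosen. What raised the background at those positions was not tested.

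These 42 R848 and 43 untreated peaks below the threshold came from 8 clusters in each list. The largest lay at the centromeric end of chromosome 9 (3000172 to 3038285 in the R848 list), where 27 R848 peaks had pileups of 889 to 7939 fragments and folds of 1.63 to 8.88, and 29 untreated peaks had pileups of 1051 to 8682 and folds of 1.67 to 8.58. None of them met the rule. A similar cluster on chromosome 10 (3109538 to 3117048 in the R848 list) held 5 R848 peaks with pileups of 490 to 919 and folds up to 4.61, and 6 untreated peaks with pileups of 9 to 941 and folds up to 4.79. Far from chromosome ends, a cluster on chromosome 2 (98662237 to 98667333 in the R848 list) held 3 peaks in each list, of which 1 was extreme. That peak was the deepest of both lists, with 18669 fragments and a fold of 15.4 with R848 and 20385 fragments and a fold of 14.8 untreated. The annotated genes within 1000 bp were Mir101c at the cluster of chromosome 9 and Gm3318 at that of chromosome 10, where the untreated cluster also reached Gm30674.

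Of the listed ribosomal RNA-like genes, 2 had an extreme peak in each list, and the deepest of them did not. The pseudogene Rn18s-rs5 on chromosome 17, annotated as related to the 18S ribosomal RNA, was overlapped by 2 peaks in each list. The deeper had 11790 fragments with R848 and 13081 untreated and was the second deepest of each list. Its summit lay outside annotated genes. Its fold was 2.39 with R848 and 2.37 untreated, over backgrounds of 4930 fragments with R848 and 5510 untreated. Its width was 4190 bp with R848 and 4175 bp untreated. The other peak, with its summit inside an annotated gene, had 9123 fragments with R848 and 10380 untreated. Its fold was 1.96 with R848 and 1.99 untreated. Of 86 rRNA-like and structural RNA genes listed, 79 were in the annotation, of which 25 had an R848 peak and 18 an untreated peak within 1000 bp. An extreme peak lay at 2 of the 25 genes with an R848 peak and at 2 of the 18 with an untreated peak, whereas of all annotated genes with a peak within 1000 bp, 1.39% in the R848 list (196 of 14110) and 1.28% in the untreated list (202 of 15768) had an extreme one. Lars2, which encodes the mitochondrial leucyl-tRNA synthetase and holds sequence similar to ribosomal RNA in mice, had a fold of 40.5 with R848 and 40.7 untreated, at pileups of 3885 fragments with R848 and 4519 untreated. Mir6236, annotated as a miRNA gene, had 35.3 with R848 and 36.2 untreated, at pileups of 360 fragments with R848 and 425 untreated. The peak at Mir6236 (chr9:110281136-110281494) spanned the whole annotated gene. The 5S ribosomal RNA genes of chromosome 8 that had a peak, named n-R5s with a number, had folds of 1.93 to 2.66 with R848 and 1.85 to 2.92 untreated. The 7SL RNA genes Rn7s1 and Rn7s2, which encode the RNA of the signal recognition particle, had 5.53 and 3.87 with R848, against 5.26 and 5.04 untreated.

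Genes listed here for an association with satellite sequence held a few narrow extreme peaks. Of 18 such genes, listed with earlier results of these data in view, 6 were in the annotation. A peak lay at each of the 6 in both lists, and an extreme one at 3 in each list, against the 1.39% (R848) and 1.28% (untreated) of all annotated genes with a peak. Both lists of genes were chosen with these results known, so their shares are descriptions. Gm15564 had a fold of 37.2 with R848 and 37.1 untreated, at pileups of 493 with R848 and 597 untreated. Gm32584 held 2 extreme peaks in each list, the higher with 35.8 with R848 and 32.8 untreated and the other with 31.2 with R848 and 29.2 untreated, and D5Ertd579e is annotated at the same place. Gm10710 had 17.1 with R848 and 19.3 untreated. The other 3 were under the threshold. Sfi1, a centrosomal gene at the start of chromosome 11, held 32 peaks with R848 and 35 untreated, of which the highest had folds of 4.75 with R848 and 4.62 untreated. Mid1, a ubiquitin ligase gene on chromosome X, reached 4.62 with R848 and 3.9 untreated, and the neighbouring Erdr1 reached 8.06 with R848 and 6.87 untreated.

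Among chromosomes, the share of peaks that were extreme in the R848 list was highest on chromosome 13 (1.14%, 19 of 1662), and in the untreated list on chromosome 19 (1.25%, 13 of 1044). It was lowest on chromosome 7, with 6 of 3219 peaks (0.186%) with R848 and 5 of 3662 (0.137%) untreated. The sex chromosomes held 5.35% of the R848 extreme peaks (16, against 4.33% of all R848 peaks) and 5.54% of the untreated ones (17, against 4.61%), within counting error of the background.

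In a ranking of coding genes by fold, those with an extreme peak fill the first places by the rule itself. A peak reached within 1000 bp of the start or the other end of 5349 genes with R848 and 6301 untreated. An extreme one did so at 58 genes in each list. In both lists 51 peaks account for the 58 genes, since 7 peaks lay at the ends of 2 genes each. Of the 50 extreme peaks per list with their summit at a gene end, 33 with R848 and 31 untreated overlapped a promoter window. The extreme genes numbered 74 over both lists, of which 42 were extreme in both, 16 in the R848 list only and 16 in the untreated list only. Each gene extreme in 1 list also had a gene-end peak in the other, with folds of 5.26 to 9.74 in the untreated list at the R848-only genes and 6.39 to 9.88 in the R848 list at the untreated-only genes.

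Narrow peaks took the first places of that ranking. In the R848 list the order was Sspn (42.2), Wls (42.0), Lars2 (40.5), Gm32584 (35.8) and Pole4 (17.3), of which Pole4 alone had a peak of 600 bp or more. In the untreated list it was Wls (42.0), Sspn (42.0), Lars2 (40.7), Gm32584 (32.8) and Gm10710 (19.3), all under 600 bp. Of the first 50 genes by fold, 7 in the R848 list and 9 in the untreated list had such a narrow peak, and the others were broad. Ordered by -log10 q, 46 of the first 50 genes of the R848 list and 44 of the untreated list were genes with an extreme peak, and ordered by pileup 37 of the R848 list and 34 of the untreated list were. With no control library analysed, this ranking orders peaks and does not measure KAT8 occupancy. Without peaks under 600 bp it would begin at Pole4 in both lists.

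The broad extreme genes, named here after their values were seen, had diverse known functions. Pole4 had 17.3 at a pileup of 125 fragments with R848 and 17.5 at 119 untreated. Ubxn2a, which encodes a UBX-domain protein, had 16.1 with R848 and 14.5 untreated. Apaf1 and Ikbip, neighbours on opposite strands, shared a peak of 15.6 with R848 and 16.1 untreated. Hint1, which encodes a nucleotide hydrolase, had 14.7 with R848 and 15.8 untreated. Cacna1a, a calcium channel gene, had 14.0 with R848 and 16.3 untreated, and Atp2a2, which encodes the calcium pump of the endoplasmic reticulum, had 13.4 with R848 and 14.7 untreated. The peaks at Hint1, Cacna1a and Atp2a2 lay at a gene end but overlapped none of the promoter windows used here, in either list. Cry1 (12.9 with R848 and 12.4 untreated), Fasn (11.7 with R848 and 12.4 untreated) and Cbl, a ubiquitin ligase gene (11.46 with R848 and 11.96 untreated), were also extreme in both lists. So was a peak over the promoter of Hif1a, which encodes the hypoxia-inducible factor, with 11.5 with R848 and 10.9 untreated. Other divergent neighbours that shared an extreme peak included Naa35 and A230056J06Rik (14.6 with R848 and 14.5 untreated), Mttp and Trmt10a (11.7 with R848 and 11.4 untreated) and Shld2 and Glud1 (11.0 with R848 and 8.24 untreated).

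The 10 genes next below the threshold had peaks of 647 to 1318 bp in the R848 list and of 498 to 1129 bp in the untreated list. In the R848 list they were Sf3b1 (9.90), Hdgfl2 and Ubxn6 (9.88), Brpf1, a scaffold of other MYST acetyltransferases, with its neighbour Cpne9 and with Vdac3 (9.86 each), Zbtb2 (9.84), the heat shock gene Hsp90aa1 and the splicing factor gene Srsf4 (9.76 each) and Thap1 (9.69). In the untreated list they were the cohesin regulator gene Pds5a (9.92), Tanc2 (9.85), Gpr155 and Rmnd5a (9.84 each), the oxygen sensor gene Egln1 (9.82), Stat3, a transcription factor of cytokine signalling (9.78), Sptan1 (9.74), Rab10 (9.71) and Hook3 with Rnf170 (9.68 each).

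Promoter windows under extreme peaks were rich in CpG dinucleotides. An extreme peak overlapped a window in 41 cases in the R848 list (13.7%, 10 to 18.1, against 7.48% of all R848 peaks) and in 40 in the untreated list (13.0%, 9.47 to 17.3, against 7.62% of all untreated peaks). Of these, 38 in the R848 list and 34 in the untreated list were 600 bp wide or more. A wider peak is more likely to overlap a window, and the shares were not matched for width. The windows with an extreme R848 peak (56 windows of 48 genes) had a median GC content of 71.2% and a median of 36.5 CpG dinucleotides, and those with an extreme untreated peak (57 windows of 48 genes) had medians of 69.3% and 33. Windows with any R848 peak had medians of 65.3% and 26, windows with any untreated peak 65.0% and 25, and all 32851 windows 52.7% and 7. The sequences of Pole4, Apaf1, Fasn and Cry1 above are of the CpG-dense kind. The lowest numbers were 2 CpG dinucleotides at Gm46178 (fold 18.5 with R848 and 17.4 untreated, width 344 bp in both), 6 at Gm15564 and 7 to 10 at Gm40237 (16.3 with R848 and 15.6 untreated), a broad peak of 1562 bp with R848 and 1613 bp untreated. The coding gene Fam72a, extreme in the untreated list only, also had 10 (7.27 with R848 and 10.7 untreated). Narrow extreme peaks lay over only 4 windows of 3 genes in the R848 list and 8 windows of 7 genes in the untreated list. Their medians were 6 CpG dinucleotides with R848 and 21 untreated. Of these windows, 1 with R848 (that of Raph1, with 49) and 5 untreated held 20 or more. Windows under broad extreme peaks had medians of 37 in the R848 list and 36 in the untreated list.

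**Figure D5:**
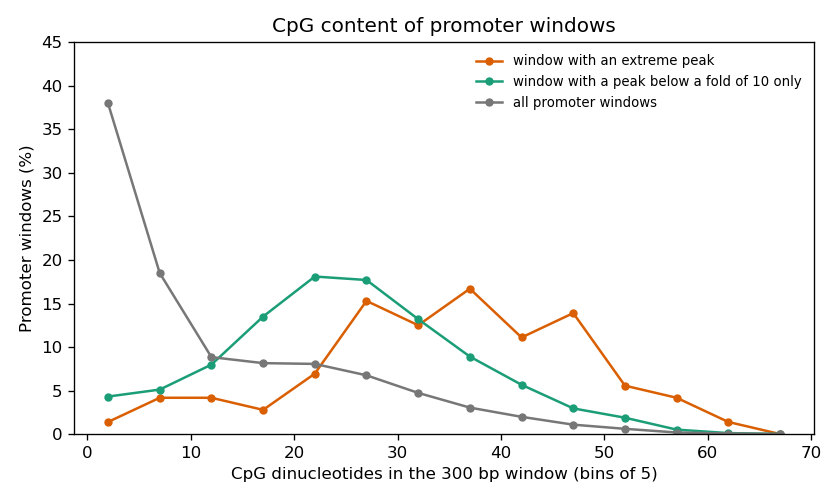
Percent of promoter windows (y axis) by their number of CpG dinucleotides in bins of 5 (x axis), for windows with an extreme peak in either list (orange), windows with only peaks below a fold of 10 (green) and all windows (grey). The orange curve lies furthest to the right, with a highest bin of 16.7% at 35 to 39 CpG dinucleotides, while 38.0% of all windows hold fewer than 5.

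The letters of 2 known promoter motifs were searched on both strands of these windows. CGGAAG, the core bound by ETS factors, was in 42.9% of windows with an extreme R848 peak and 36.8% of those with an extreme untreated peak, against 34.0% of windows with any R848 peak, 34.2% of those with any untreated peak and 16.9% of all windows. The TATA box letters TATAAA were in 0 of the windows with an extreme peak in either list, against 4.73% of windows with any R848 peak, 5.02% of those with any untreated peak and 13.6% of all windows. With only 56 R848 and 57 untreated windows under extreme peaks, some of them overlapping, shares this small would be few windows. The 0 is therefore not a clear absence. These are matches of letters in windows that differ in GC content, so the base composition differs along with them.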

How the data were processed

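KAT8 CUT&Tag peaks of mouse bone marrow-derived macrophages were analysed, with 1 R848 and 1 untreated library, grouped by the treatment label. The extreme peaks and gene lists were chosen with earlier results of these data known. Per the submitters' processing notes, Bowtie 0.12.8, MACS2 2.2.7.1, DiffBind and mm10 were used, with no roles stated. The authors deposited 1 peak list per sample, with a score (10 times −log10 p), the fold as a linear ratio, −log10 of the q-value and p-value, and a summit offset for each peak. Peaks reached down to a −log10 p of 2.01 in both lists. Depth was not given, so pileup and background were solved from fold = (pileup + 1) / (background + 1) and the Poisson tail. Pileups came out whole within 0.05 for 99.996% of R848 and 99.998% of untreated peaks, and the lowest background was 2.62 fragments in the R848 library and 3.37 in the untreated one. A shallower library gives coarser folds.

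Summits were placed against RefSeq genes (GRCm38.p6) with a 1000 bp window around coding gene ends, first at gene ends, then inside coding genes, inside other genes and outside. In the gene ranking a gene counted where any base of a peak reached the window. Shares have exact (Clopper-Pearson) 95% intervals. Overlap meant at least 1 bp, loci were merged within 1000 bp, and overlaps were checked with bedtools 2.31.1. Python 3.11.15, numpy 2.4.6, pandas 2.3.3, scipy 1.17.1 and matplotlib 3.10.9 were used, and the code was tested on simulated data. Named were the 12 loci of highest fold, up to 8 loci per list that were extreme in that list only, the 3 peaks on either side of the threshold, genes of the rRNA-like and satellite lists with an extreme peak, and the 10 genes next below the threshold in each list; other genes were named after their values were seen. Alternatives were folds of 8 or 15, other overlaps, windows and merging distances, and ranking by q or pileup.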

Additional observations from a re-analysis of the deposited data

How the results depend on the processing

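The counts and gene-end shares depended on the fold threshold. At a fold of 8 or more there were 477 R848 and 479 untreated peaks, 27.3% (R848) and 28.6% (untreated) of them at gene ends, 154 R848 and 167 untreated genes, and 556 loci. At a fold of 15 or more there were 166 peaks in each list, 4.22% (R848) and 6.02% (untreated) of them at gene ends, 9 R848 and 12 untreated genes, the same numbers among the first 50 genes, and 179 loci, of which 153 were extreme in both lists. Overlap of 50% of each peak (99.7% in each list) and merging within 10000 bp (331 loci) changed little. So did gene-end windows of 500 bp (14.0% with R848 and 13.7% untreated). Other values moved further. At a fold of 8, 391 loci were extreme in both lists. A gene-end window of 3000 bp gave shares of 20.4% with R848 and 20.2% untreated, and 74 genes in each list. A start zone of 5 Mb held 6.35% of R848 and 6.51% of untreated extreme peaks. Ranking by pileup left 37 R848 and 34 untreated extreme genes among the first 50. No paired analysis was possible because each group had 1 library. With 1 library a group, no spread between replicates limits any value, and the pileup of the peaks nearest the threshold, about 36 fragments at the least, limits how well their fold is known. Reads mapped to several places could not be separated from others, since how such reads were mapped is not given in the sources used here.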
